A study of Mus musculus with 6 samples.

Results

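This account covers the protein families that dock, prime and fuse secretory vesicles in mouse islets of Langerhans: synaptotagmins and synaptotagmin-like proteins, syntaxins, SNAP-25 proteins, VAMPs, Munc18 and tomosyn proteins, SV2 proteins, Rab3 and Rab27, RIM, Munc13 and complexins. The rule picks members by gene symbol, with no measured value in it, but it was set with earlier results of these data known. They were 77 of the 24407 genes in the count table. One match is by name only: Snap91 encodes AP180, a clathrin adaptor, and is no SNAP-25 protein. Of the 77 members, 67 had enough counts to be tested among 14539 genes.

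Islets were isolated from 70-week-old C57BL/6 mice on a regular chow diet, and poly(A) RNA was sequenced. The mutant group, "lmna LCS", comes from mice that by the series' title make lamin C as their only A-type lamin, and its libraries carry KIKI in their titles. It is called LCS below, and the controls are WT. Each genotype had 3 libraries, and each library held the islets of 3 mice. Pooling hides the spread between animals, so the spread below is between pools. Both A-type lamins come from Lmna, so its total count is no check of the labels. Levels are given as CPM, counts scaled to a common library size. Lmna was at 62.4, 62.0 and 78.9 CPM in LCS and 61.3, 27.3 and 21.0 CPM in WT (adjusted p = 0.155).

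Hormone granules fuse with the plasma membrane when a vesicle SNARE (a VAMP) zips together with a syntaxin and a SNAP-25 protein on the target membrane. Munc18, Munc13 and RIM proteins prepare this assembly, complexin and tomosyn hold it back or clamp it, and synaptotagmins trigger fusion when calcium binds. Rab3 and Rab27, small GTPases on the granule, recruit effectors that tether it to the membrane. In beta cells this machinery releases insulin. Other syntaxins, VAMPs and SNAP-25 proteins serve traffic between the endoplasmic reticulum, Golgi, endosomes and lysosomes.

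Libraries held from 26123654 to 68036676 counts. The 3 rows that collect ribosomal RNA reads (Rn45s, Lars2 and Mir6236) took 52.3% to 54.1% of the counts in LCS and 7.64% to 18.5% in WT. The defining hormone genes of islets, Ins1, Ins2 and Gcg, were abundant in all 6 libraries. Summed over 11 beta cell markers, the level was 176046 to 264344 CPM in LCS and 148915 to 173450 CPM in WT, and none of the 11 passed the test. Ins1 and Ins2 carry most of that sum. Over the 11 genes the median log2 fold change was 0.09, with 6 above 0 and 5 below, and at an unadjusted p under 0.05 Ins2 was higher and Slc2a2, Ero1lb and G6pc2 were lower. Acinar cells, the enzyme-secreting cells of the exocrine pancreas, left a signal that moved with genotype. Of 17 tested acinar markers, 16 rose in LCS, and the summed level of the list was 585 to 1003 CPM in LCS and 196 to 297 CPM in WT. The acinar transcription factors did not move together. Ptf1a, too low to test, had 5, 11 and 5 counts in LCS and 0, 2 and 0 in WT. Rbpjl, also too low to test, had 0, 3 and 3 counts in LCS and 4, 1 and 0 in WT. Bhlha15 was tested and had a log2 fold change of -0.26 (SE 0.17, edgeR adjusted p = 0.368). In the lists of other cells, 1 gene each rose among 8 alpha (Gc), 4 delta (Rbp4), 2 PP (Ppy) and 7 macrophage markers (Lyz2). Summed levels were 74.5 to 90.3 CPM in LCS and 52.8 to 61.4 CPM in WT for the macrophage list, 3247 to 6029 and 838 to 1489 CPM for PP, and 1747 to 2284 and 312 to 1319 CPM for delta. The lymphocyte list summed to 7.38 to 11.0 CPM in LCS and 4.36 to 6.67 CPM in WT, and the endothelial list to 152 to 165 and 122 to 150.1 CPM. These 5 sums did not overlap between genotypes, and their part in the members' values was not tested. Within the macrophage list the genes did not move together: 4 of 7 had log2 fold changes below 0, with a median of -0.03, from -0.62 for Adgre1 to 1.48 for Lyz2. Sst carried most of the delta sum, at 1613 to 2097 CPM in LCS and 238 to 1209 CPM in WT. Of the 4 delta genes 3 were above 0, and Ghsr lay at -0.64. The endothelial sums separated only narrowly, and that list's median was 0.05, from -0.02 for Pecam1 to 0.72 for Plvap. All 5 tested lymphocyte genes and the 2 PP genes were above 0. No marker passed among 5 duct, 5 endothelial, 5 lymphocyte, 6 stellate and pericyte, and 7 Schwann cell and neuron genes tested. In bulk tissue, fewer cells of a type and less RNA per cell cannot be told apart.

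None of the 67 members passed the test at an adjusted p under 0.05 (edgeR's quasi-likelihood test, Benjamini-Hochberg over all genes). The background was low in that test: 2.06% of all tested genes were called higher in LCS and 0.144% lower. At an unadjusted p under 0.05, 4 members were higher (Syt5, Stx18, Vamp5 and Vamp8), where 13.3% of all genes were. On the lower side, 15 members passed that mark, against 10.8% of all genes. The 15 were Syt4, Syt7, Syt14, Sytl4, Stx16, Stx17, Snap23, Snap25, Stxbp4, Stxbp5l, Stxbp6, Sv2a, Rab27a, Unc13b and Snap91. The LCS and WT libraries did not overlap for 3 members higher in LCS (14.6% of all genes) and 15 lower (12% of all genes). The median log2 fold change, LCS over WT, was -0.20 over the tested members, with 44 below 0 and 23 above, and 0.01 over all tested genes. Under the 15 alternative settings the members' median stayed between -0.24 and -0.13. As a share of the counts outside the ribosomal rows, the members together took 0.417% to 0.530% in LCS and 0.598% to 0.618% in WT, and the groups did not overlap. The summed level of the beta cell markers, mostly Ins1 and Ins2 and part of the same counts, was higher in LCS without overlap, though the list was split in direction; its part in this share was not tested.

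**Figure D1:**
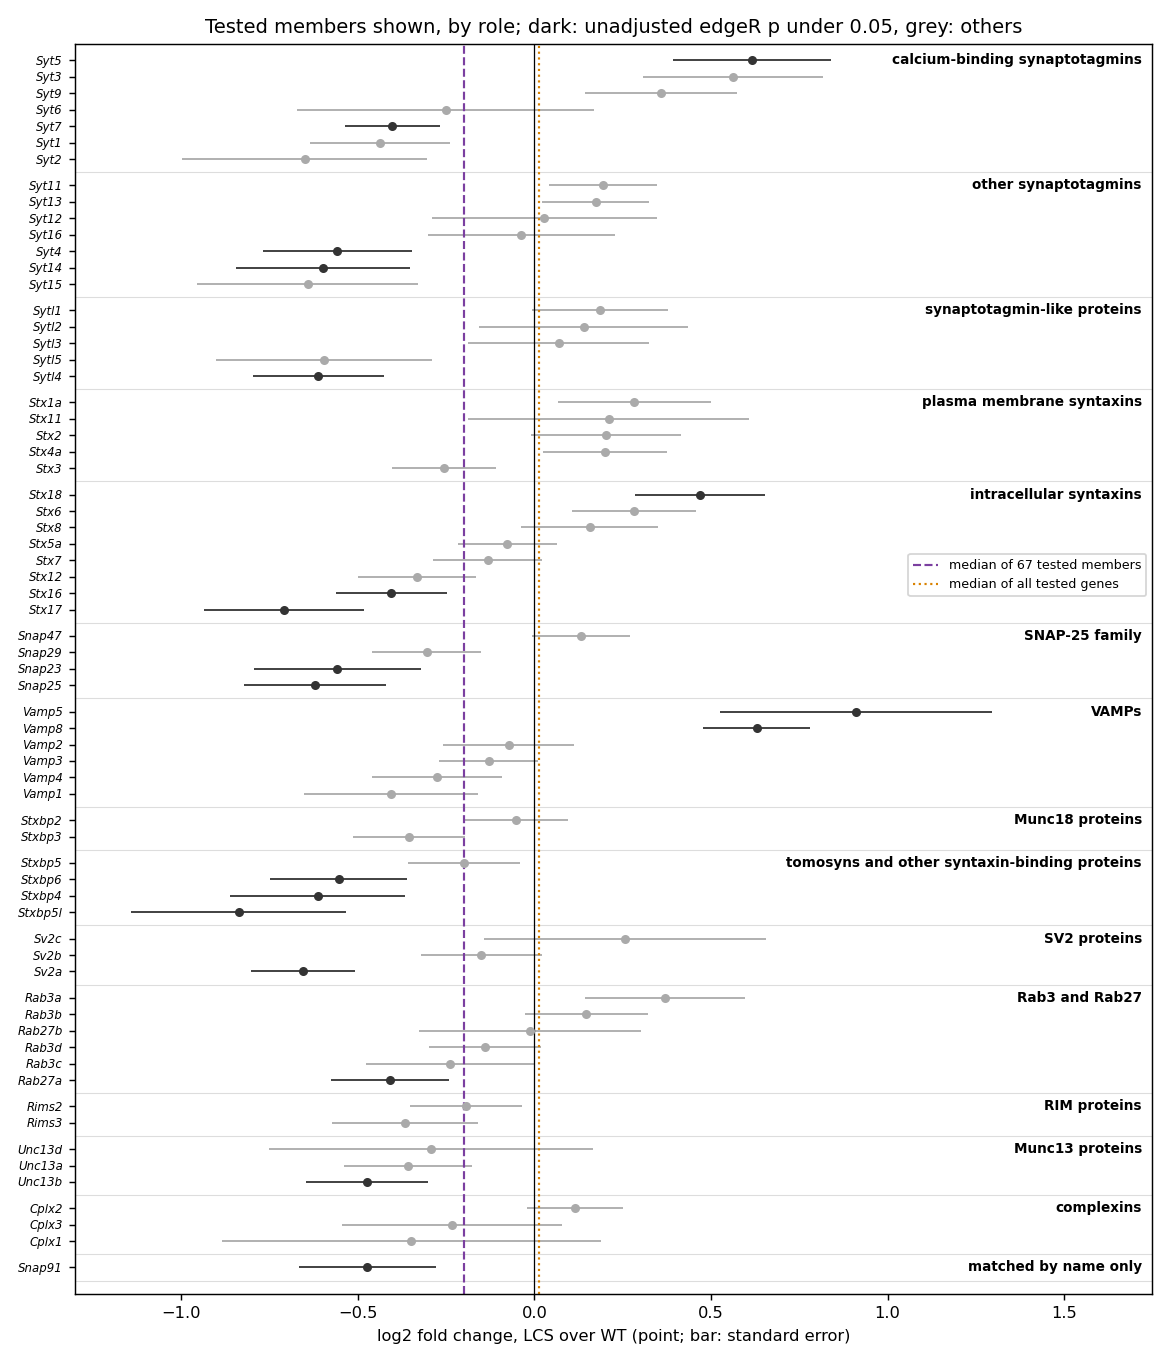
Log2 fold change (LCS over WT, points) with its standard error (bars) for 66 of the 67 tested members, grouped by role, from edgeR. The dashed line is the members' median of -0.20 and the dotted line the median of all tested genes, 0.01; dark points had an unadjusted p under 0.05, and none passed after adjustment.

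The promoters below belong to the 4 members with the smallest p. Each is the 250 bases before the annotated start, 5′ to 3′ on the gene's strand, from RefSeq on GRCm38.p6, a later build than the mm9 of the submitters' notes. Capitals mark the GC box GGGCGG read on either strand, a motif common in promoters without a TATA box. The 4 genes were picked by p, not by size of difference. Sv2a, Sytl4 and Stx17 had log2 fold changes below 0 and Vamp8 above 0. Sv2a is at chr3:96180977-96181226 (+), Sytl4 at chrX:133981813-133982062 (-), Stx17 at chr4:48124669-48124918 (+) and Vamp8 at chr6:72390668-72390917 (-).
Sv2a: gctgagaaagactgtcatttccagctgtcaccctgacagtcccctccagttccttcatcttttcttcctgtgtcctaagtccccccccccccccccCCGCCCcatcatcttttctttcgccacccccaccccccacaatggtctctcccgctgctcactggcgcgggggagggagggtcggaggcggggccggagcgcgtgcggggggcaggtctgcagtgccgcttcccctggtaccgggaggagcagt
Sytl4: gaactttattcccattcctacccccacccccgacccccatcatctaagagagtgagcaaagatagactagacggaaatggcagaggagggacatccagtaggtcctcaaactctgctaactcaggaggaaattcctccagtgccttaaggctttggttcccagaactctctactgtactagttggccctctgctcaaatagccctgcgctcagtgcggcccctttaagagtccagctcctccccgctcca
Stx17: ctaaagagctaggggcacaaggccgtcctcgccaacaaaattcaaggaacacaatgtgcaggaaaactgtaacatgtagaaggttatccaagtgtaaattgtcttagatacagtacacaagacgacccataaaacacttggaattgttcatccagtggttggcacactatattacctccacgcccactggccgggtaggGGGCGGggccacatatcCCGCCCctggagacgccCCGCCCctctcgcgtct
Vamp8: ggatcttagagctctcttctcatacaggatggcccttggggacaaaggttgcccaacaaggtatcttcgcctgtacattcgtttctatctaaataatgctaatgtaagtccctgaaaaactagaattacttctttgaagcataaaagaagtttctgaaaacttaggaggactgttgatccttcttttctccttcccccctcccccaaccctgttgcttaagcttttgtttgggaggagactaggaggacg
The Sv2a window held 1 GC box and the Stx17 window 3, and the Sytl4 and Vamp8 windows held none. Over 75 windows of 59 members, 58.7% held a GC box, where 32.7% of all 32851 windows did. The E-box CACGTG was in 13.3% of member windows and 6.02% of all, the CCAAT box CCAAT in 29.3% and 33.8%, and the TATA box TATAAA in 6.67% and 12.4%. The cyclic AMP element TGACGTCA was in 1.33% and 1.55%. All were searched on both strands, no motif is contained in another, and genes with several starts count more than once.

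Vesicle proteins come first. Sv2a encodes the most widespread of the SV2 proteins, glycoproteins of synaptic vesicles and endocrine granules. In replicate order it stood at 55.8, 66.0 and 49.2 CPM in LCS, against 91.5, 91.2 and 87.0 CPM in WT. All 3 LCS libraries lay below all 3 WT libraries, and the WT libraries lay close to each other. The means were 57.0 ± 8.45 CPM in LCS and 89.9 ± 2.53 CPM in WT (SD, n = 3 each), a log2 fold change of -0.66 (SE 0.15, adjusted p = 0.0538). The gene was past the threshold under 6 of 15 alternatives, and its log2 fold change ranged from -0.75 to -0.50 over them. Sv2a made up 75.5% to 76.9% of the SV2 family's CPM per kilobase of transcript in LCS and 80.1% to 84.3% in WT. Sv2b differed by -0.15 (SE 0.17), and Sv2c stayed under 1 CPM in every library.

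Among the VAMPs, Vamp2, the vesicle SNARE of regulated insulin release, showed no difference beyond its spread. It was at 133, 89.9 and 127 CPM in LCS and 146, 112 and 110 CPM in WT, with a log2 fold change of -0.07 (SE 0.19, adjusted p = 0.835). The sign of that small value turned under 3 of the 15 alternatives. Vamp8, an endosomal VAMP that is also the main VAMP of acinar zymogen granules, went the other way from most members. Its level was 87.1, 83.5 and 110.5 CPM in LCS and 56.9, 60.5 and 64.2 CPM in WT, and the groups did not overlap. The means were 93.7 ± 14.7 and 60.6 ± 3.63 CPM (SD, n = 3 each), a log2 fold change of 0.63 (SE 0.15, adjusted p = 0.0617). Vamp8 passed the threshold under 3 of 15 alternatives. With an offset for transcript length its log2 fold change was 0.31 (adjusted p = 0.293). The acinar marker list given above was higher in the same libraries; its part in the Vamp8 values was not tested. Vamp5, a VAMP of muscle and other non-neuronal cells, was low, at 1.15 to 2.07 CPM in LCS and 0.592 to 1.10 CPM in WT. Vamp1, Vamp3 and Vamp4 had log2 fold changes of -0.41, -0.13 and -0.27, with overlapping groups. Vamp7 had no count in any library.

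The 4 genes of the SNAP-25 family had a median log2 fold change of -0.43, and none passed the test. Snap25, the SNARE of the plasma membrane that pairs with syntaxin in beta cells and neurons, was at 86.2, 94.6 and 61.6 CPM in LCS. In WT it was at 101, 121 and 151 CPM. Every WT library was above every LCS library, by a narrow gap between the nearest. The log2 fold change was -0.62 (SE 0.20, adjusted p = 0.116). Snap23, its ubiquitous relative, had a log2 fold change of -0.56 (SE 0.24, adjusted p = 0.190), from 17.1 to 33.1 CPM in LCS and 30.2 to 43.3 CPM in WT. The ratio of Snap25 to Snap23 within a library overlapped between the genotypes, as given with the ratios. Snap29, which serves several intracellular steps including autophagosome fusion, differed by -0.31 and Snap47 by 0.13, and neither passed. Snap29 overlaps Pi4ka in the annotation, at 83.4 CPM, and where counting ignored strand their reads could mix.

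Of the 5 tested syntaxins of the plasma membrane, 4 had log2 fold changes above 0, where 7434 of all 14539 tested genes did. None of the 5 passed the test, had an unadjusted edgeR p under 0.05 or had groups without overlap. Stx1a, the syntaxin of neurons and beta cells, was at 8.04, 7.13 and 11.3 CPM in LCS and 7.86, 7.62 and 6.24 CPM in WT. The log2 fold change was 0.28 (SE 0.22, adjusted p = 0.447) and the groups overlapped. Stx4a, which supports fusion of newly arrived granules, was close to Stx3 per kilobase. In the LCS means Stx4a was at 17.6 and Stx3 at 14.7 CPM per kilobase, and in the WT means they were at 15.3 and 17.5, so their order turned. By library, Stx4a was at 26.3, 19.1 and 28.0 CPM in LCS and 21.3, 22.8 and 19.7 CPM in WT. Its log2 fold change was 0.20 (SE 0.18) and turned sign under 1 of 15 alternatives. Stx3, a syntaxin of granules and apical membranes, had the only value below 0, -0.26 (SE 0.15). Stx2 differed by 0.20 and Stx11 by 0.21, and Stx19 was too low to test, with at most 7 counts in a library.

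Intracellular syntaxins split. Stx17, the SNARE of autophagosomes, was at 17.1, 14.8 and 10.6 CPM in LCS and 17.3, 24.0 and 28.2 CPM in WT. The groups did not overlap, though WT replicate 1 was barely above LCS replicate 1. The log2 fold change was -0.71 (SE 0.23, adjusted p = 0.114). Stx16, of the trans-Golgi network, stood at 37.5, 36.4 and 34.5 CPM in LCS and 39.3, 49.7 and 54.5 CPM in WT (log2 fold change -0.40, SE 0.16, adjusted p = 0.160). Again WT replicate 1 was the lowest of its group. Stx18, a SNARE of the endoplasmic reticulum, was at 21.9 to 27.0 CPM in LCS and 14.5 to 22.1 CPM in WT, a log2 fold change of 0.47 (SE 0.18, adjusted p = 0.166). Stx5a, of the Golgi, was the highest of this group per kilobase, and its log2 fold change was -0.08 (SE 0.14, adjusted p = 0.768), a value that turned sign under 2 of 15 alternatives. For Stx6, Stx7, Stx8 and Stx12, of endosomes and the trans-Golgi, the values were 0.28, -0.13, 0.16 and -0.33, with overlapping groups.

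Calcium sensors also split. Syt7, a high-affinity sensor for insulin and glucagon release, was at 163, 163 and 144 CPM in LCS and 194, 213 and 214 CPM in WT. Each WT library was well above each LCS library. The log2 fold change was -0.40 (SE 0.14, adjusted p = 0.124). Syt5, a sensor of dense-core vesicles, was at 44.5, 47.4 and 40.38 CPM in LCS and 40.36, 22.0 and 23.9 CPM in WT. The groups met at LCS replicate 3 and WT replicate 1. Its log2 fold change was 0.62 (SE 0.22, adjusted p = 0.144). Syt3 and Syt9 leaned the same way, at 0.56 and 0.36, and Syt1, Syt2 and Syt6 the other way, at -0.44, -0.65 and -0.25. Per kilobase, Syt7 made up 28.5% to 29.4% of all synaptotagmins in LCS and 32.8% to 37.2% in WT, while Syt5 made up 7.77% to 8.26% and 3.73% to 6.64%.

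Synaptotagmins that do not work as fast calcium triggers included the most abundant member. Syt13, which lacks the residues that bind calcium and is an endocrine marker, was at 500.1, 469 and 487 CPM in LCS and 496, 405 and 390.3 CPM in WT (log2 fold change 0.17, SE 0.15, adjusted p = 0.504). Syt4, a regulator of secretion in mature beta cells, was at 168, 209 and 123 CPM in LCS. It was at 207, 238 and 291 CPM in WT, and the groups overlapped by LCS replicate 2 (log2 fold change -0.56, SE 0.21, adjusted p = 0.153). Syt14 differed by -0.60 (SE 0.25, adjusted p = 0.179), with WT replicate 1 at 51.3 CPM inside the LCS range of 35.2 to 61.7 CPM. Syt11, Syt12, Syt15 and Syt16 had log2 fold changes of 0.19, 0.03, -0.64 and -0.04.

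Rab GTPases and their effectors dock the granule. Rab27a was at 158, 220 and 154 CPM in LCS and 230, 241 and 237 CPM in WT. LCS replicate 2 lay close below the WT libraries and the other two lay well below. The log2 fold change was -0.41 (SE 0.17, adjusted p = 0.178). Its effector granuphilin, Sytl4, which holds insulin granules at the membrane, was at 205, 214 and 170 CPM in LCS and 229, 323 and 348 CPM in WT. The groups did not overlap, and the log2 fold change was -0.61 (SE 0.19, adjusted p = 0.102). Sytl5, another Rab27 effector, differed by -0.60 (SE 0.31), and Sytl1, Sytl2 and Sytl3 by 0.19, 0.14 and 0.07. Rab27b stayed between 1.55 and 3.12 CPM. Rab3a, of neurons and beta cells, was at 46.0, 50.5 and 47.7 CPM in LCS and 52.6, 31.3 and 27.5 CPM in WT, where replicate 1 exceeded every LCS library (log2 fold change 0.37, SE 0.23). Rab3b, Rab3c and Rab3d differed by 0.15, -0.24 and -0.14.

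All 5 tested RIM and Munc13 genes, which prime granules, had log2 fold changes below 0, and none passed the test. Of all 14539 tested genes, 7105 were below 0. Unc13a encodes Munc13-1, which opens syntaxin for SNARE assembly. It was at 63.7, 65.9 and 41.6 CPM in LCS and 75.2, 71.3 and 72.8 CPM in WT, without overlap, for a log2 fold change of -0.36 (SE 0.18, adjusted p = 0.260). Unc13b was at 30.6, 29.5 and 21.9 CPM in LCS and 32.7, 40.3 and 41.1 CPM in WT, also without overlap (log2 fold change -0.47, SE 0.17, adjusted p = 0.145). Unc13a overlaps Colgalt1, at 24.6 CPM, and Unc13b overlaps Fam214b, at 16.2 CPM. With the length offset the 2 log2 fold changes were -0.09 and -0.23. Rims2, the main RIM of beta cells, was at 28.98, 27.2 and 23.2 CPM in LCS and 26.3, 31.0 and 33.6 CPM in WT (log2 fold change -0.19, SE 0.16), and it made up 77.3% to 83.3% of the RIM family per kilobase. Rims3 had a log2 fold change of -0.37 without overlap. With the length offset Rims2 lay at -0.007 and Rims3 at -0.14. Their transcripts exceed 4000 bases, a class where the median of all genes was -0.24.

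Syntaxin partners and clamps held no member past the test. Stxbp2 and Stxbp3, Sec1/Munc18 proteins of non-neuronal exocytosis, differed by -0.05 and -0.36 on the log2 scale. The tomosyns Stxbp5 and Stxbp5l sequester syntaxin and SNAP-25 away from VAMP. Stxbp5l was at 19.2, 20.6 and 11.2 CPM in LCS and 18.3, 32.4 and 40.6 CPM in WT, so WT replicate 1 sat among the LCS libraries (log2 fold change -0.84, SE 0.30, adjusted p = 0.144). Stxbp5 differed by -0.20 (SE 0.16). Amisyn, Stxbp6, another protein with a VAMP-like SNARE motif, was at 14.4, 16.87 and 15.4 CPM in LCS and 16.88, 24.5 and 27.4 CPM in WT (log2 fold change -0.55, SE 0.19, adjusted p = 0.134). Stxbp4, which binds Stx4a, differed by -0.61 (SE 0.25). Cplx2, nearly the only complexin here at 95.4% to 97.3% of the family per kilobase, was at 328, 322 and 343 CPM in LCS and 294, 326 and 297 CPM in WT (log2 fold change 0.11, SE 0.14, adjusted p = 0.630). Snap91 differed by -0.47 (SE 0.19, adjusted p = 0.178), from 7.72 to 11.5 CPM in LCS and 12.9 to 15.6 CPM in WT.

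Levels differed across the members by several orders of magnitude. Mean levels were at least 100 CPM for 10 members, 10 to 100 CPM for 35, 1 to 10 CPM for 17 and under 1 CPM for 15. Per kilobase of transcript, Syt13 was first, at 122 CPM per kilobase over the 6 libraries (range 104 to 133), and Syt7 next at 107 (84.5 to 125). That order held in the LCS means (129 and 91.9) and turned in the WT means, at 114 for Syt13 and 121 for Syt7. They were followed by Sytl4 (75.1), Vamp2 (72.1), Rab27a (67.2), Snap25 (65.5), Cplx2 (64.6), Vamp8 (53.3) and Syt4 (53.0). Each of these neighbours overlapped the next in its range over libraries, so their order is loose. The plasma membrane partner Stx1a was at 3.72 CPM per kilobase, far under Snap25 and Vamp2, and Stx4a at 16.5. The 10 untested members included Syt8, Syt10, Syt17, Stx19, Vamp7, Rims1, Rims4, Unc13c and Cplx4. Vamp7 and Unc13c had no count, which at these depths allows up to 3 counts, or 0.0589 to 0.105 CPM by library on the scale used here. That limit covers counting error only. Vamp7 was also the only member with no matched transcript length, and whether its reads could be counted here was not tested.

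**Figure D2:**
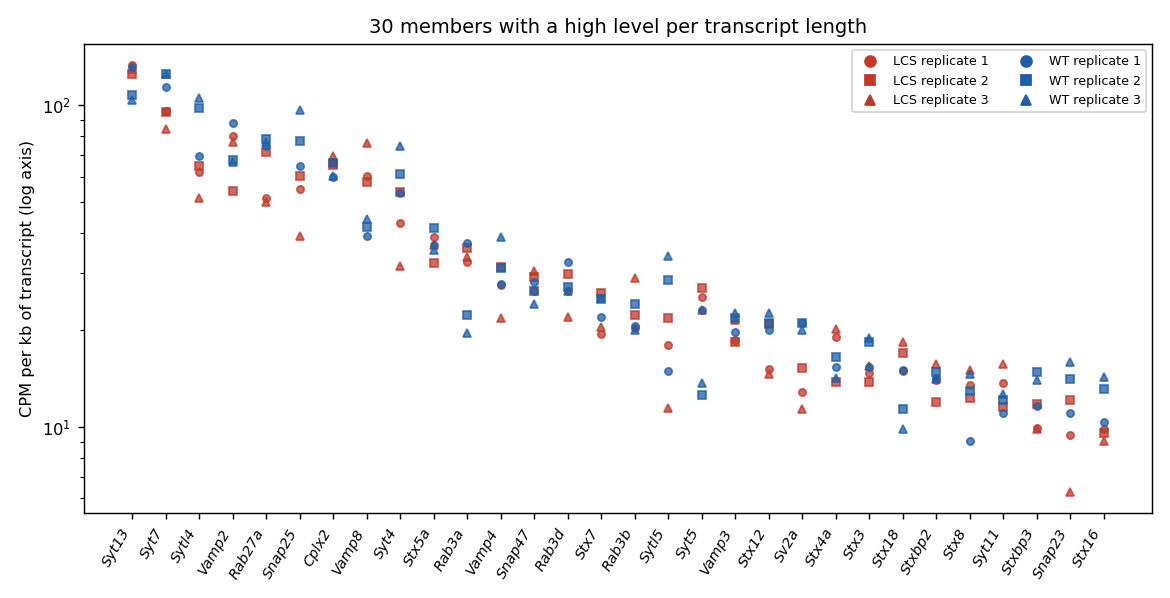
Level in CPM per kilobase of transcript (log axis) for 30 members with a high mean, one symbol per library. Syt13 and Syt7 lead at 122 and 107 on average, with Syt7 the higher in the WT mean, and neighbouring genes overlap throughout.

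A ratio of 2 counts within a library does not depend on how libraries were scaled. Over 10 pairs of an endocrine or neuronal form and a ubiquitous or exocrine form, 3 did not overlap between genotypes. With 3 libraries against 3, the exact two-sided permutation test cannot go below p = 0.1, so no pair could pass. The log2 ratio of Vamp2 to Vamp8 was 0.61, 0.11 and 0.20 in LCS and 1.35, 0.89 and 0.78 in WT, a difference of -0.70 (exact permutation p = 0.1, Benjamini-Hochberg 0.333). That is, Vamp2 counts exceeded Vamp8 counts in every library of both genotypes, and in LCS they were closer to level. The log2 ratio of Stx1a to Stx3 was -1.65, -1.74 and -1.24 in LCS and -1.75, -2.05 and -2.38 in WT, a difference of 0.52 (exact permutation p = 0.1). For Rab3a to Rab3d, where Rab3d is the form of zymogen granules, it was -1.14, -1.18 and -0.83 in LCS and -1.25, -1.74 and -1.89 in WT, a difference of 0.58 (exact permutation p = 0.1). These ratios do not remove a trend with transcript length, and the Rab3a transcript has 1408.5 bases and that of Rab3d 3835. With the length offset, the log2 fold changes were 0.09 for Rab3a and -0.02 for Rab3d, from 0.37 and -0.14 without it. Vamp2 and Vamp8 then lay at -0.29 and 0.31, and Stx1a and Stx3 at 0.20 and -0.47. Snap25 to Snap23 differed by -0.03 (exact permutation p = 0.9), from 1.52 to 1.85 in LCS and 1.66 to 1.80 in WT. Sytl4 to Sytl1 differed by -0.81 (exact permutation p = 0.2), and WT replicate 1, at 3.91, lay within the LCS range of 3.67 to 4.02. Vamp2 to Vamp3, Stx1a to Stx4a and Rab27a to Rab27b differed by 0.05, 0.08 and -0.46, with overlap.

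**Figure D3:**
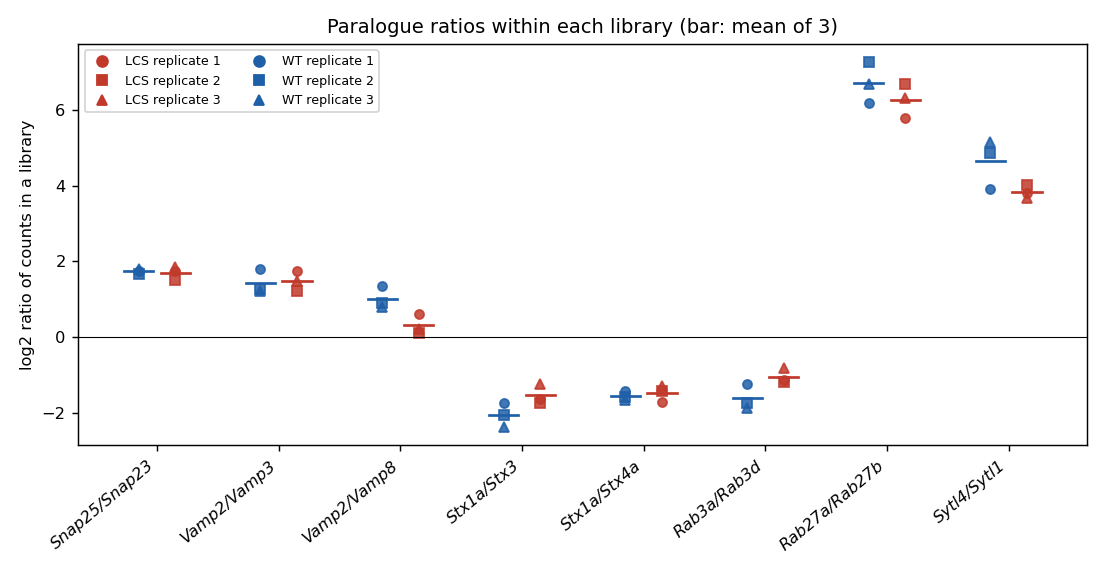
Log2 ratio of the counts of 2 related genes within each library (points) with the mean of 3 libraries (bars), LCS red and WT blue, for 8 of the 10 pairs. Vamp2/Vamp8, Stx1a/Stx3 and Rab3a/Rab3d do not overlap between genotypes, and the other 5 pairs shown do.

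WT replicate 1 stood apart from the other WT libraries. For 42 of the 67 tested members its level lay nearer the mean of the LCS libraries than that of the other 2 WT libraries, 62.7% of members and 59.6% of all tested genes. LCS replicate 2 lay nearer WT for 52.2% of members and 53.6% of genes, and the other 4 libraries lay nearer the other genotype for 19.4% to 31.3% of members. The labels name no batch, but WT replicates 1 and 2 have title numbers well outside the run of the remaining 4. Without WT replicate 1, 5 members passed as higher in LCS, where 12.5% of all genes did, and 12 as lower, where 7.68% did. Those that rose were Syt5 (log2 fold change 0.95, SE 0.16, adjusted p = 0.00330), Syt3, Rab3a, Stx18 and Vamp8. Those that fell were Stxbp5l (-1.10, SE 0.24, adjusted p = 0.0110), Sytl4 (-0.77, SE 0.16, adjusted p = 0.00932), Stx17, Stxbp6, Sv2a, Snap25, Syt14, Sytl5, Stx16, Unc13b, Stxbp4 and Syt4. WT replicate 1 lay nearer LCS for most members, so leaving it out makes larger differences and more calls likely. These calls are no separate support for a difference. Leaving out any other library gave at most 1 member past the threshold. DESeq2 on all 6 libraries called 1 member higher (Vamp8; 6.44% of all genes) and 6 lower (Sv2a, Sytl4, Stx17, Snap25, Syt7 and Stxbp5l; 3.93% of all genes).

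**Figure D4:**
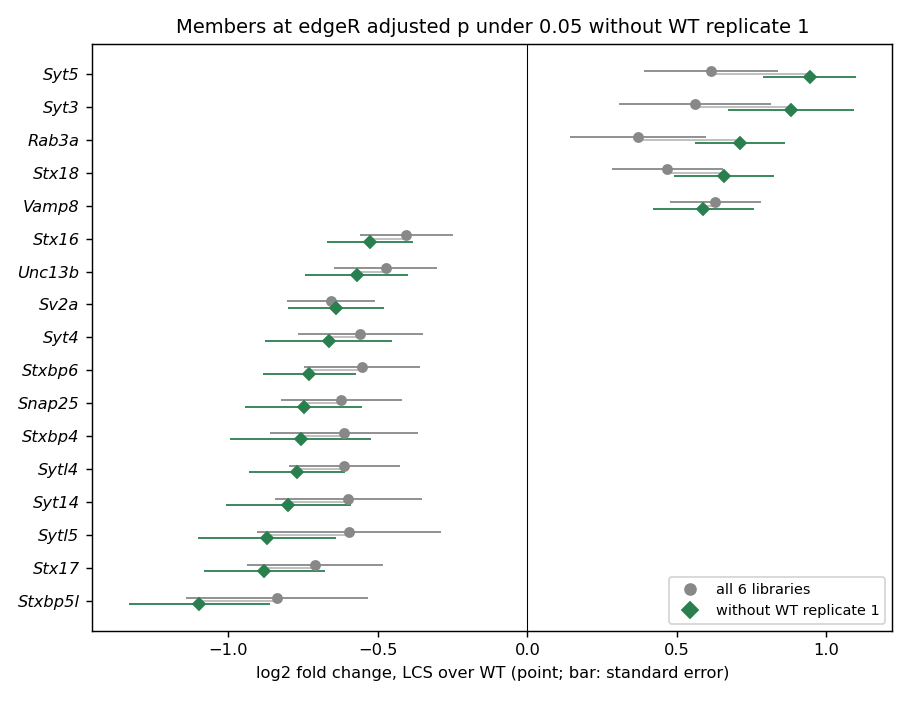
Log2 fold change (LCS over WT) with its standard error for the 17 members at an edgeR adjusted p under 0.05 without WT replicate 1 (green diamonds), beside the value from all 6 libraries (grey circles). The direction is the same for all 17, and 15 lie farther from 0 without that library, Sv2a and Vamp8 being the exceptions. The 17 were picked by that fit, and the library left out lay nearer LCS for most members, so larger values are favoured by the choice.

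Transcript length moved with the fold changes. Over 13674 protein-coding genes, longer transcripts had lower LCS values (Spearman rho of length with log2 fold change -0.51 across genes), and over the 67 members the rho was -0.29. These are correlations across genes that share libraries. The members' median transcript was 2854 bases, near the 2741 of all these genes. By length class the medians of members and of all genes were 0.34 (2 members) and 0.63 under 1000 bases, and 0.07 (19 members) and 0.27 from 1000 to 2000 bases. They were -0.24 (29 members) and -0.03 from 2000 to 4000 bases, and -0.36 (17 members) and -0.24 above. With an offset for length, 0 members passed, and the members' median was -0.19 beside -0.01 for all genes. Snap25 and Syt7, both with short transcripts, then lay at -0.88 and -0.61.

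The rest of the pathway was read from 71 other genes in 7 lists, of which 69 were tested. One rose and none fell. Use1, a SNARE that brings Golgi-derived vesicles back to the endoplasmic reticulum, was at 46.0, 39.6 and 57.6 CPM in LCS and 25.1, 25.9 and 22.8 CPM in WT. It was 1.94-fold higher in LCS (log2 fold change 0.95, SE 0.17, adjusted p = 0.0214). That call was lost under 5 of 15 alternatives, among them the length offset, where the log2 fold change was 0.43 (adjusted p = 0.202), and leaving out LCS replicate 1 or 3 or WT replicate 2 or 3 (adjusted p from 0.0661 to 0.0940). In the unadjusted test, 6 of the 69 were higher and 7 lower, where 13.3% and 10.8% of all genes were, and the median was -0.11.

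Of the pathway genes that did not pass, Synpr and Vti1b came closest to the threshold. Vti1b, an endosomal SNARE, was at 55.5, 63.3 and 60.2 CPM in LCS and 43.4, 26.6 and 24.5 CPM in WT (log2 fold change 0.92, SE 0.21, adjusted p = 0.0561). Synpr, or synaptoporin, a vesicle membrane protein, was at 17.6, 24.7 and 11.9 CPM in LCS and 32.4, 39.9 and 41.2 CPM in WT (log2 fold change -1.06, SE 0.24, adjusted p = 0.0557). Rimbp2, which links RIM to calcium channels, differed by -0.72 (SE 0.22, adjusted p = 0.0998). The remaining genes named here were farther off, with edgeR adjusted p from 0.148 (Napa) to 0.607 (Vps33a). Pclo, or piccolo, differed by -0.48, Exph5, a Rab27 effector, by -0.44, and Mlph, another, by -0.38. In NSF and SNAP recycling, which takes spent SNARE complexes apart, Napa differed by 0.45 and Napg by -0.48. In the exocyst, the tether of arriving vesicles, Exoc7 differed by 0.33 and Exoc5 by -0.31. Among other vesicle proteins Sypl differed by -0.53, and of the other Sec1/Munc18 proteins Scfd2 differed by 0.19 and Vps33a by -0.13.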

How the data were processed

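RNA of islets was sequenced in 6 libraries (3 LCS, 3 WT), each a pool of 3 mice. The authors deposited whole-number read counts per gene, without normalization. The submitters' processing notes list build mm9, HTSeq 0.9.0, TopHat2 2.1.1, Bowtie2 2.2.9, FastQC and bcl2fastq 2.20, with no role or order. Annotation and strand setting: not given in the sources used here. Per the labels' protocols, the library kit was TruSeq Stranded and RNA came from TRIzol.

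Genes passing filterByExpr were fitted with edgeR 4.0.16 (TMM, quasi-likelihood test, Benjamini-Hochberg over 14539 genes, threshold 0.05) in R 4.3.3. Common biological variation between libraries was 21.2%. CPM are TMM-scaled. TMM factors were 0.633 to 0.749 in LCS and 1.40 to 1.50 in WT. SE is the log2 fold change divided by the root of the F statistic. Lengths are medians over GENCODE M21 coding transcripts, matched by gene number or symbol. Pair ratios added 0.5 to each count, with exact permutation tests. The fit was also run on counts simulated from its own means and dispersions, with no trend in transcript length. That run checks the code and is no support for the results. Alternatives used DESeq2 1.42.0 (also its size factors), limma-voom 3.58.1, other filters, no ribosomal rows, a length offset and left-out libraries.

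Members and lists were chosen with earlier results of these data known. Named members were those past the threshold, 12 further with the smallest p, the highest per kilobase in each role, and the core genes Stx1a, Snap25 and Vamp2. Named pathway genes were those past the threshold and 2 further per list with the smallest p. Other members are named with a level or fold change only. A few items that count in the totals are not reported here. RefSeq promoters matched 59 members. Replicates follow accession order, and p-values measure the spread between pools.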

Additional observations from a re-analysis of the deposited data

How the results depend on the processing

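No paired analysis was possible because the labels give the groups no shared replicate numbers. No member was called in the edgeR fit of all libraries. Members called higher in LCS numbered 1 with the DESeq2 Wald test, 1 with no filter on low counts, 1 without WT replicates 1 and 2 together, and 0 to 5 with each library left out in turn. Members called lower numbered 1 with DESeq2 size factors, 6 with the DESeq2 Wald test, 1 with limma-voom, 1 with no filter, 2 without WT replicates 1 and 2, and 0 to 12 with each library left out. Over all genes, 300 were called higher and 21 lower. The count higher was 937 with DESeq2, 560 with no filter, 25 with the length offset, 884 without WT replicates 1 and 2, and 81 to 1857 with each library left out. The count lower was 571, 126, 5, 331, and 1 to 1142 in the same order. The highest counts came without WT replicate 1. The length offset ran on protein-coding genes with a length; without the offset those genes gave 230 higher and 16 lower, in a fit chosen after seeing the data. Fits without both WT replicates left WT with 1 library, assumed to vary like LCS. No direction of a called result reversed in these settings, and the members' median stayed below 0. Precision rests on 3 libraries per genotype, and 15 members had a mean under 1 CPM, where low counts limit it as well.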

Other observations

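Other SNAREs act as fixed sets within the cell, and 2 such sets can be read together; they were chosen after their values were seen. Retrieval from the Golgi to the endoplasmic reticulum uses Stx18, Use1, Bnip1 and Sec22b. All 4 had log2 fold changes above 0, at 0.47 (SE 0.18), 0.95 (SE 0.17), 0.22 (SE 0.17) and 0.46 (SE 0.18), and of them Use1 passed the test. All 4 have short transcripts (864 to 1473 bases), a range where the median of all genes also lay above 0. With the length offset the values were 0.19 for Stx18, 0.43 for Use1, -0.37 for Bnip1 and 0.07 for Sec22b, so they no longer shared a sign, and none passed. Bnip1 was at 11.5 to 12.7 CPM in LCS and 8.73 to 11.4 CPM in WT. Sec22b was at 88.7 to 117.9 CPM in LCS and 61.5 to 88.9 CPM in WT, overlapping by WT replicate 1.

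Fusion of late endosomes uses Stx7, Stx8, Vti1b and Vamp8. Here Vti1b and Vamp8 lay at 0.92 and 0.63 and Stx7 and Stx8 at -0.13 and 0.16, and none passed the test. With the length offset Vti1b and Vamp8 lay at 0.66 and 0.31 and Stx7 and Stx8 at -0.09 and -0.10.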
